A study of Rattus norvegicus with 22 samples.

Results

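Flt3 and Kit are receptor tyrosine kinases of class III, and the genes described here are these receptors with their ligands Flt3lg and Kitlg, together with Csf1 and Il34, the ligands of the sister receptor Csf1r. They are 6 of the 32883 genes in the count table and were found by their symbols. The group was selected on the comparison of gonadectomized (GDX) with intact males, in which Flt3 was among the leading genes with lower counts in GDX males. Values of the 6 genes in any comparison that holds male rats are therefore a description without a test, and they were tested only between ovariectomized (OVX) and intact females, which are other rats.

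RNA was sequenced from the ventral part of the cervical spinal cord, segments C3 to C6, with 1 library per rat, to ask how removal of the gonads changes gene expression there. The groups were 5 intact males, 5 GDX males whose testes had been removed, 6 intact females and 6 OVX females whose ovaries had been removed. All were Sprague-Dawley rats aged 3 to 4 months, perfused with saline before the tissue was taken, and GDX and OVX rats were sampled 2 weeks after surgery. The methods used here describe no sham operation for the intact rats, so surgery and loss of the gonads cannot be told apart.

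Between 12371756 and 17571887 reads were counted per library, with medians of 14196615 for intact and 15645521 for GDX males, and of 14640726 for intact and 14766802.5 for OVX females. Levels are given as CPM, the reads of a gene scaled to a common library size with TMM factors over all 22 libraries. The study's methods give an average fragment size for each library, and these sizes fall into a longer class of 7 libraries and a shorter class of 15. The 5 GDX and 6 OVX libraries were all of the shorter class, whereas 3 of 5 intact males and 4 of 6 intact females were of the longer class. Values within a class are given where the class bears on a result.

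Class III receptors form dimers when a ligand binds and then phosphorylate each other, which starts signalling through adaptors, PI3 kinase, Src kinases and STAT proteins until the receptor is removed by ubiquitin ligases such as Cbl. Flt3 and its ligand are best known for the growth of blood progenitors and dendritic cells, and Kit with stem cell factor, the product of Kitlg, for blood stem cells, mast cells, melanocytes and germ cells. In the central nervous system, Csf1 and Il34 maintain microglia through Csf1r.

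Sequence upstream of the start site was taken for 4 of the 6 genes from RefSeq on build GRCr8; Csf1 and Il34 were not matched. The 250 bases upstream are shown for both receptors. Flt3 was the 1 of these 4 genes whose intact and GDX males did not overlap, in the comparison that chose the group, and Kit is the related receptor. The share of all genes without overlap was not counted. Flt3 lies at chr12:12659785-12660034 on the plus strand and Kit at chr14:32978813-32979062 on the minus strand, each written 5′ to 3′ in the direction of transcription. Capitals mark a match to the hexamer AGAACA of the androgen response element, on either strand.
Flt3: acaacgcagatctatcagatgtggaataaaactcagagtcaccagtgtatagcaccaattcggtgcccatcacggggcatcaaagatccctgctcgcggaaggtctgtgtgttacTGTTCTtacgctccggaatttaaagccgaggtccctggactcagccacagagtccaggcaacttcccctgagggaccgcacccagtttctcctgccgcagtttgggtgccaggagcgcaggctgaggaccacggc
Kit: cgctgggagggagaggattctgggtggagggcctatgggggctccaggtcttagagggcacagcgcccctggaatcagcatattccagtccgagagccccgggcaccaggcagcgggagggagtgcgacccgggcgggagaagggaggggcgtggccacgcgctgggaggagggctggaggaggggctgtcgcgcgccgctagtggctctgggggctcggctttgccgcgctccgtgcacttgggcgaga
The Flt3 window held 1 match, on the opposite strand and starting at base 116, and the windows of Kit, Flt3lg and Kitlg held 0. This hexamer was found on either strand in 17.5% of 33469 promoter windows of the same length. The sequence GGTCA, the core of the estrogen response element, was present in 35.4% of the windows and in 0 of these 4. The full elements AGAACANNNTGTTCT and GGTCANNNTGACC were present in 4 and 8 of all windows and in 0 of these 4. A match is a run of letters in this window and not a measured binding site.

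Flt3 counts were 391 to 643 per library in males. The gene stood at 42.0, 39.1, 38.2, 39.8 and 41.7 CPM in intact males 1, 2, 3, 5 and 6, and at 30.8, 30.8, 28.2, 27.5 and 28.8 CPM in GDX males 1, 2, 4, 5 and 6. Every GDX male was below every intact male, so that the ranges did not overlap. The means were 40.2 CPM ± 1.65 (SD, n = 5) and 29.2 CPM ± 1.50 (SD, n = 5), a difference of -27.3%. The coefficients of variation, 4.11% in intact and 5.15% in GDX males, were close to the counting error alone, 4.15% and 4.73%. A choice of the gene on this comparison favours a small spread within these groups, so nothing is read from it. The edgeR log2 fold change was -0.46 (SE 0.05), without a test because this comparison chose the gene.

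Across females Flt3 was more variable than in males, whose small spread the choice of the gene favours. Intact females ranged from 29.2 to 38.8 CPM with a median of 35.9, and OVX females from 26.4 to 39.7 CPM with a median of 32.9. These ranges overlapped over most of their width, and the OVX group held both the lowest and the highest female. The coefficient of variation was 11.3% in intact and 15.1% in OVX females, against counting errors of 4.36% and 4.52%. The log2 fold change of OVX against intact females was -0.11 (SE 0.09, 95% interval -0.30 to 0.09; adjusted p = 0.752 in edgeR), which does not show that Flt3 was the same in both groups.

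Among intact females Flt3 differed by fragment-size class. The 2 rats of the shorter class were at 29.2 and 32.3 CPM and the 4 of the longer class at 34.0 to 38.8 CPM, whereas the 6 OVX females, all of the shorter class, covered 26.4 to 39.7 CPM. In OVX against intact females the log2 fold change turned to 0.08 with the class as a term and to 0.08 within the shorter class. In males the value was similar within the class: the 2 intact males of the shorter class were at 39.1 and 39.8 CPM, those of the longer class averaged 40.6 CPM, and the 5 GDX males, all of the shorter class, reached at most 30.8 CPM. With the class as a term the log2 fold change of GDX was -0.44, and within the shorter class it was -0.44.

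Kit, the receptor of stem cell factor, was counted 41 to 153 times per library. It stood at 5.14, 5.98, 4.98, 5.14 and 2.69 CPM in intact males 1, 2, 3, 5 and 6, and at 5.30, 6.43, 6.35, 8.87 and 5.61 CPM in GDX males 1, 2, 4, 5 and 6. Intact male 6 was the lowest of the 22 rats and GDX male 5 the highest male, and the ranges overlapped. GDX against intact males gave a log2 fold change of 0.44 (SE 0.20), opposite in sign to that of Flt3. It was 0.29 without intact male 6 and 0.30 without GDX male 5, and 0.23 within the shorter class.

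Intact females had 5.04 to 8.87 CPM of Kit with a median of 7.12, and OVX females 5.62 to 10.9 CPM with a median of 8.89. The female ranges overlapped, with 3 of 6 OVX females above every intact female. OVX against intact females gave a log2 fold change of 0.19 (SE 0.17, 95% interval -0.16 to 0.54; adjusted p = 0.760 in edgeR), and 0.09 with the fragment-size class as a term. Intact males had less Kit than intact females, 4.79 CPM ± 1.23 (SD, n = 5) against 7.24 CPM ± 1.40 (SD, n = 6), with a log2 difference of -0.60 (SE 0.18) that was not tested here because it holds the same intact males.

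The number of Flt3 reads per Kit read, which is a ratio of counts and not of transcript levels because lengths were not used, was 6.54 to 15.5 in intact males and 3.10 to 5.81 in GDX males, without overlap. It was 3.75 to 7.49 in intact females and 2.43 to 7.07 in OVX females, which overlapped. The ratio of 15.5 was that of intact male 6, which had 41 Kit reads, and the other intact males reached at most 8.16.

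**Figure D1:**
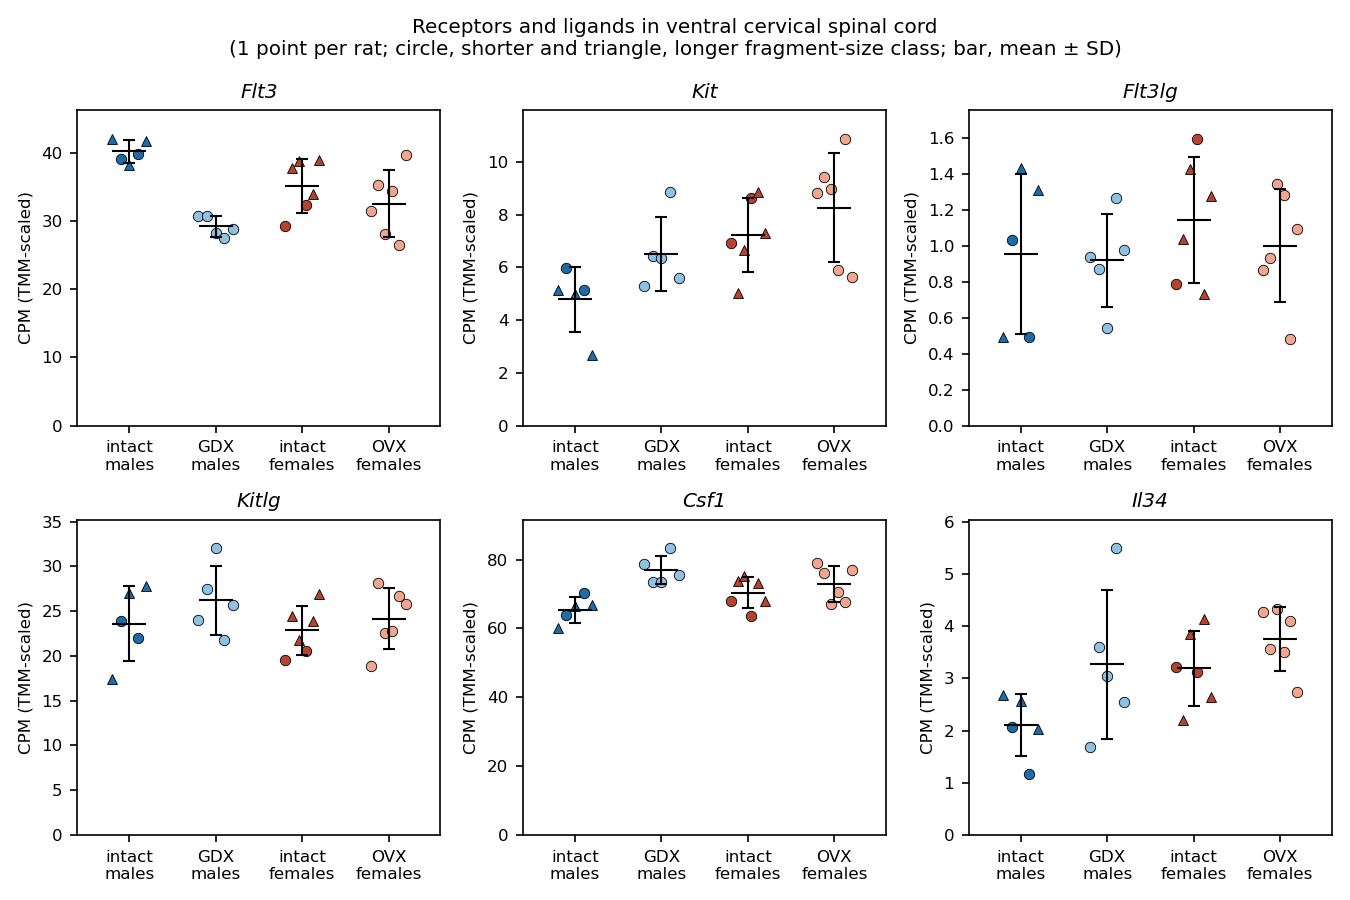
CPM of the 6 genes in each rat (1 point per rat, y axis in CPM from 0, groups on the x axis). Circles are libraries of the shorter and triangles of the longer fragment-size class, and bars give the mean ± SD. Flt3 and Csf1 are the genes whose intact and GDX males do not overlap, Flt3 at 38.2 to 42.0 against 27.5 to 30.8 CPM and Csf1 at 60.0 to 70.2 against 73.4 to 83.3 CPM.

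Of the ligands, Flt3lg, which encodes the ligand of Flt3, was near the lower limit of detection with 6 to 23 reads per library. Males averaged 0.954 CPM ± 0.444 (SD, n = 5) when intact and 0.919 CPM ± 0.260 (SD, n = 5) after GDX. The corresponding female means were 1.14 CPM ± 0.349 (SD, n = 6) and, after OVX, 1.00 CPM ± 0.315 (SD, n = 6). All ranges overlapped, and counting error alone amounts to 24.3% to 27.1% of the mean. GDX against intact males had a log2 fold change of -0.05 (SE 0.34) that was positive in 6 and negative in 12 of 18 alternatives, and OVX against intact females one of -0.17 (SE 0.27, 95% interval -0.74 to 0.39; adjusted p = 0.892 in edgeR). Differences in Flt3lg inside this interval could not be resolved at this depth.

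Kitlg, which encodes stem cell factor, had 247 to 475 reads per library. It stood at 17.4, 23.9, 27.0, 21.98 and 27.8 CPM in intact males 1, 2, 3, 5 and 6, and at 24.0, 27.5, 32.0, 21.8 and 25.7 CPM in GDX males 1, 2, 4, 5 and 6. The ranges overlapped, and the log2 fold change was 0.15 (SE 0.12), with 0.06 without intact male 1 and 0.07 without GDX male 4. Intact females had 19.5 to 26.9 CPM with a median of 22.8, and OVX females 18.9 to 28.2 CPM with a median of 24.3. OVX against intact females gave a log2 fold change of 0.08 (SE 0.09, 95% interval -0.12 to 0.28; adjusted p = 0.839 in edgeR), and the female ranges overlapped. It was 0.27 with the fragment-size class as a term and 0.26 within the shorter class, where the 2 intact females averaged 20.0 CPM.

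Csf1, the colony-stimulating factor of macrophages and microglia, was the ligand with the most reads, 841 to 1370 per library. It stood at 60.0, 63.9, 66.5, 70.2 and 66.9 CPM in intact males 1, 2, 3, 5 and 6, and at 78.8, 73.6, 73.4, 83.3 and 75.5 CPM in GDX males 1, 2, 4, 5 and 6. Every GDX male was above every intact male. The means were 65.5 CPM ± 3.77 (SD, n = 5) and 76.9 CPM ± 4.15 (SD, n = 5), a difference of 17.5%, and the log2 fold change was 0.23 (SE 0.05). It was 0.19 with the fragment-size class as a term and 0.20 within the shorter class, where the 2 intact males at 63.9 and 70.2 CPM still lay below the GDX males. Intact females had 63.7 to 75.3 CPM with a median of 70.6, and OVX females 66.9 to 79.1 CPM with a median of 73.4. These ranges overlapped, with a log2 fold change of 0.05 (SE 0.05, 95% interval -0.06 to 0.16; adjusted p = 0.801 in edgeR). With the class as a term it was 0.15, and within the shorter class 0.14.

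Il34, the second ligand of Csf1r, had 19 to 78 reads per library. It stood at 2.68, 2.07, 2.57, 1.18 and 2.04 CPM in intact males 1, 2, 3, 5 and 6, and at 1.68, 3.59, 3.04, 5.49 and 2.54 CPM in GDX males 1, 2, 4, 5 and 6. GDX male 5 had the highest level of the 22 rats, GDX males 1 and 6 lay within the intact range, and 3 of 5 GDX males lay above it. For GDX the log2 fold change was 0.64 (SE 0.30), and 0.37 without GDX male 5, so this single library carried much of the difference. Within the shorter class it was 1.02, since intact male 5 with the lowest level is 1 of the 2 intact males there. Intact females had 2.21 to 4.14 CPM with a median of 3.17, and OVX females 2.73 to 4.33 CPM with a median of 3.83. The female ranges overlapped, with a log2 fold change of 0.23 (SE 0.17, 95% interval -0.13 to 0.59; adjusted p = 0.708 in edgeR).

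Between OVX and intact females 0 of the 6 genes passed an adjusted p of 0.1 in edgeR, 0 passed an unadjusted p of 0.05 and 0 passed in DESeq2. Among all 14910 genes tested in that comparison 5, or 0.0335%, passed, so that a count of 0 among 6 is near this background. An unadjusted p under 0.05 was found for 1516 of the 14910. With 1 rat left out, the log2 fold changes ranged from -0.17 (without OVX female 6) to -0.06 (without OVX female 5) for Flt3, from 0.10 (without OVX female 5) to 0.27 (without OVX female 6) for Kit, and from -0.27 (without intact female 5) to -0.05 (without OVX female 5) for Flt3lg. For Kitlg they ranged from 0.03 (without OVX female 2) to 0.14 (without OVX female 1), for Csf1 from 0.02 (without intact female 4) to 0.07 (without OVX female 5) and for Il34 from 0.14 (without intact female 2) to 0.31 (without intact female 5). Between GDX and intact males the ranges of 2 of the 6 genes did not overlap, Flt3 lower and Csf1 higher. The share of all genes without overlap was not counted. The share that passed the test, 13.4% of 14931 genes at an adjusted p under 0.1, is another measure. Since the males chose the group, nothing is read from the count of 2.

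The log2 differences between intact males and intact females were 0.20 (SE 0.07) for Flt3, -0.60 (SE 0.18) for Kit, -0.26 (SE 0.33) for Flt3lg, 0.05 (SE 0.11) for Kitlg, -0.10 (SE 0.05) for Csf1 and -0.61 (SE 0.22) for Il34. With 1 rat left out the difference went from -0.45 to -0.09 for Flt3lg and from -0.01 to 0.14 for Kitlg. The CPM ranges of intact males and intact females overlapped for all 6 genes, and the share of all genes without overlap was not counted. The share that passed the test in this comparison, 4.01% of 14937 genes, is another measure. Within the shorter class, which holds 2 intact males and 2 intact females, the log2 difference was 0.36 for Flt3, -0.48 for Kit, -0.63 for Flt3lg, 0.19 for Kitlg, 0.03 for Csf1 and -0.98 for Il34. The male response minus the female response was -0.35 (SE 0.12) for Flt3, 0.26 (SE 0.27) for Kit, 0.13 (SE 0.45) for Flt3lg, 0.07 (SE 0.16) for Kitlg, 0.18 (SE 0.08) for Csf1 and 0.41 (SE 0.34) for Il34. With 1 rat left out these differences ranged from 0.10 (without intact male 6) to 0.35 for Kit, from 0.15 (without GDX male 5) to 0.58 for Il34, from -0.04 (without intact male 5) to 0.32 for Flt3lg and from -0.02 (without intact male 1) to 0.14 for Kitlg. Within the shorter class that of Csf1 was 0.05 and that of Flt3 -0.52. Over all 29 alternatives the difference ranged from 0.15 to 0.78 for Il34, from -0.04 to 0.52 for Flt3lg and from -0.07 to 0.14 for Kitlg. These comparisons share the intact males with the comparison that chose the genes.

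**Figure D2:**
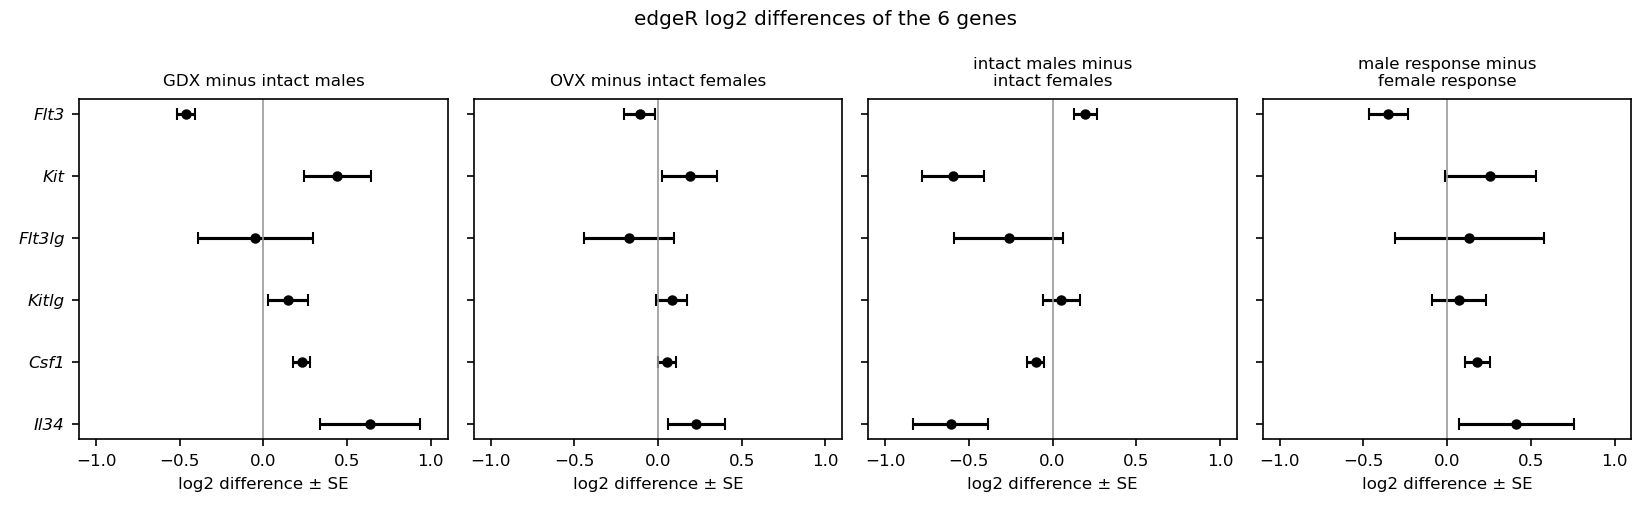
Log2 differences from edgeR (x axis, points, with SE as bars) of the 6 genes (y axis) in the 4 comparisons. In GDX against intact males Flt3 lies at -0.46 and Csf1 at 0.23 with an SE of 0.05 each, whereas in OVX against intact females the 6 values lie between -0.17 and 0.23.

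The order of the group means was intact males, intact females, OVX females and GDX males for Flt3, and only the step from intact males to intact females exceeded the pooled SD. For Kit the order was OVX females, intact females, GDX males and intact males, with only the last step beyond the pooled SD. Csf1 ran from GDX males over OVX females and intact females to intact males, and Il34 from OVX females over GDX males and intact females to intact males. In both, the last step alone exceeded the pooled SD. For Flt3lg and Kitlg no neighbours differed beyond it. Intact males were therefore at an end of the order for 4 of the 6 genes, highest in Flt3 and lowest in Kit, Csf1 and Il34. The share of all genes with intact males at an end was not counted. Since a comparison that holds the intact males chose the group, nothing is read from this count.

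Across the 22 rats Kit and Il34 varied together, with Pearson r = 0.707 and Spearman rho = 0.825 on log2 CPM with a prior count of 2. The coefficient was 0.744 without the 2 rats farthest in Kit, 0.509 for deviations from the group means, 0.767 in the 15 libraries of the shorter class and 0.804 in the 7 of the longer class. Flt3 and Kit varied in opposite directions, with r = -0.586 and rho = -0.586 over 22 rats. That coefficient was -0.501 without the 2 rats farthest in Flt3, -0.540 for deviations from group means, -0.485 in the shorter and -0.692 in the longer class. These were the 2 largest in size of 15 pairs, and they are descriptions over rats that share groups.

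**Figure D3:**
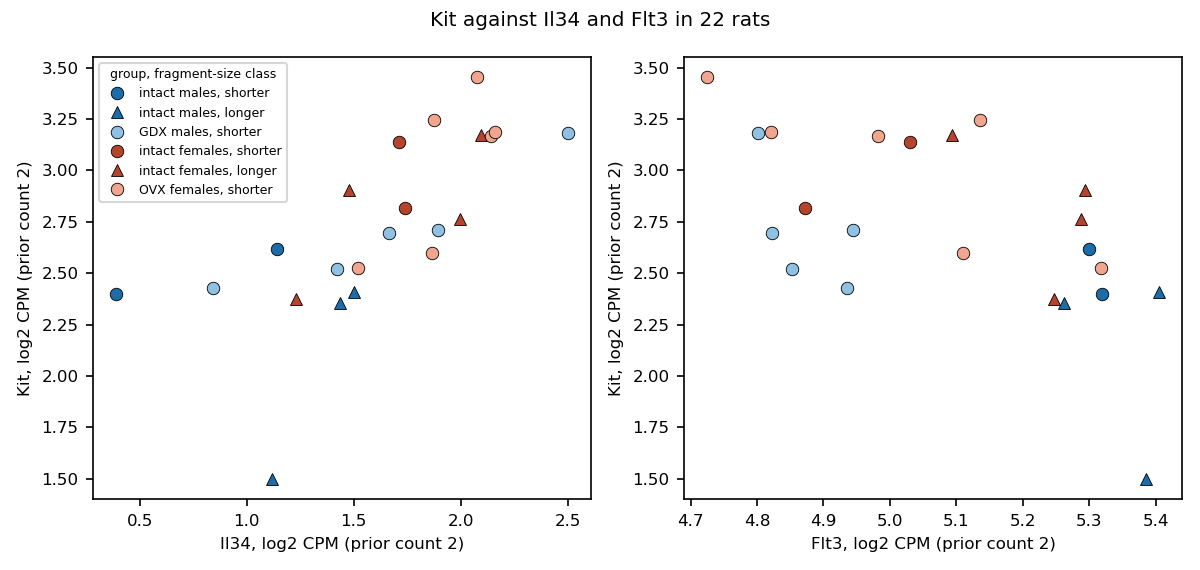
Kit (y axis) against Il34 (left x axis) and Flt3 (right x axis) in 22 rats, all in log2 CPM with a prior count of 2, 1 point per rat. Colours are the 4 groups and shapes the fragment-size classes. Pearson r is 0.707 on the left and -0.586 on the right, and the lowest point in both is intact male 6.

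The genes with the pattern most like each of the 6 over 22 rats are given by Pearson r alone. For Flt3 they were Zfyve28 (r = 0.891), Abcc5 (r = 0.884) and Ank2 (r = 0.872), and for Kit they were Fxyd6 (r = 0.858), Tp53i11 (r = 0.853) and Igf1 (r = 0.842). The likeness of Zfyve28 to Flt3 was 0.876 in the shorter class and 0.261 in the longer class, and that of Pcsk4 to Flt3lg was 0.830 and 0.389. Csf1 was followed by Hspa2 (r = 0.808), Iqgap1 (r = 0.806) and Rrbp1 (r = 0.805), and Il34 by Plekha4 (r = 0.861), Rbp4 (r = 0.836) and Arhgap10 (r = 0.819). The coefficients were lower for the nearest genes of Kitlg, which were Cep192 (r = 0.731), Serpine2 (r = 0.729) and Tbl1x (r = 0.719), and for those of Flt3lg, which were LOC684797 (r = 0.712), Pcsk4 (r = 0.712) and Jkamp (r = 0.707).

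Markers of other cells bear on these values, since in bulk tissue fewer cells of a type and less RNA per cell cannot be told apart. The labelled tissue was present in its markers: the oligodendrocyte list (6 of 6 genes, most abundant Mbp) summed to 21675 to 27396 CPM, the astrocyte list (6 of 6, Gfap) to 4881 to 7135 CPM, and the motor neuron list (6 of 6, Prph) to 329 to 636 CPM. In none of the 12 lists was a gene at 0 in all 22 rats. As background to the counts below, 13.4% of all genes were called in GDX against intact males. The share was 0.0335% in OVX against intact females and 4.01% in intact males against intact females. An unadjusted p under 0.05 was found for 3549 of 14931, 1516 of 14910 and 2317 of 14937 genes in these comparisons.

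The neuron list (8 of 8 genes measured, most abundant Snap25) summed to 1607, 1611, 1416.5, 1524 and 1464 CPM in intact males 1, 2, 3, 5 and 6, and to 1352, 1336, 1328, 1096 and 1291 CPM in GDX males 1, 2, 4, 5 and 6. As with Flt3, every GDX male was below every intact male, and 5 of 8 genes were lower at an adjusted p under 0.1 (3 of 8 with the fragment-size class as a term). In intact females the sum was 1300.2 to 1413 CPM and in OVX females 1258 to 1397 CPM, and 0 of 8 genes passed by either tool, with 1 at an unadjusted p under 0.05. Intact males lay above all intact females in this sum, a difference of 12.7%, with 3 of 8 genes higher in edgeR (0 of 8 within the shorter class, 4 at an unadjusted p under 0.05). Flt3 correlated with this sum over 22 rats (r = 0.618, rho = 0.605, 0.559 without the 2 farthest rats; 0.613 in the shorter and 0.620 in the longer class), but with r = 0.112 for deviations from the group means. Its relation to 2 glial lists was inverse and similar in size. With the astrocyte list it was r = -0.623 (rho = -0.686, -0.834 without the 2 farthest rats, -0.410 in the shorter and -0.784 in the longer class, -0.0928 for deviations from group means). With the oligodendrocyte list it was r = -0.610 (rho = -0.636, -0.535 without the 2 farthest rats, -0.606 in the shorter and 0.113 in the longer class, -0.365 for deviations from group means). The meninges and fibroblast (r = -0.527), blood (r = -0.513), microglia (r = -0.427), endothelium (r = -0.418) and pericyte (r = -0.339) lists were also inverse to Flt3. For deviations from group means they lay between -0.00527 and 0.272. The motor neuron (r = 0.326), oligodendrocyte precursor (r = 0.290), dendritic cell (r = 0.0278) and mast cell (r = 0.0157) lists had positive coefficients. The parts of all these lists in the Flt3 result were not tested.

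The meninges and fibroblast list (9 of 10 genes measured, most abundant Col1a1) summed to 183, 118, 126, 81.2 and 59.8 CPM in intact males 1, 2, 3, 5 and 6, and to 162, 275, 401, 515 and 427 CPM in GDX males 1, 2, 4, 5 and 6. The ranges overlapped through GDX male 1 and intact male 1, and 7 of 7 genes tested were higher in GDX males (5 of 7 with the fragment-size class as a term). Against intact females, 5 of 7 were lower in intact males, as the levels of Kit and Il34 were. Intact females ranged from 126 to 430.2 CPM and OVX females from 256 to 446 CPM, with 0 of 8 genes called by edgeR or DESeq2 and 0 at an unadjusted p under 0.05. The rats with much of this list also had much Kit (r = 0.717, rho = 0.614, 0.552 without the 2 rats farthest in the list) and Il34 (r = 0.727, rho = 0.628, 0.622 without them). These coefficients were 0.530 and 0.544 for deviations from group means, 0.485 and 0.775 in the shorter class and 0.933 and 0.718 in the longer class. GDX male 5, highest in this list, was also the highest male in Kit and Il34, and intact male 6, lowest in the list, was lowest in Kit. Kit was inversely related to the oligodendrocyte precursor list (r = -0.540, rho = -0.631, -0.382 without the 2 farthest rats, -0.489 for deviations from group means, -0.520 in the shorter and -0.717 in the longer class). Il34 was inversely related to the neuron list (r = -0.623, rho = -0.534, -0.490 without the 2 farthest rats, -0.434 for deviations, -0.710 in the shorter and -0.254 in the longer class). The parts of meningeal tissue and of these lists in the Kit and Il34 values were not tested.

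The pericyte list (5 of 5 genes, most abundant Rgs5) summed to 51.8, 60.2, 64.7, 58.6 and 61.5 CPM in intact males 1, 2, 3, 5 and 6 and to 86.7, 88.2, 74.8, 82.4 and 67.4 CPM in GDX males 1, 2, 4, 5 and 6. As with Csf1, every GDX male was above every intact male, and 3 of 5 genes were higher. Intact females had 45.7 to 82.9 CPM and OVX females 62.8 to 89.4 CPM, with 0 of 5 genes called by either tool and 2 at an unadjusted p under 0.05 in edgeR. Csf1 correlated with this list (r = 0.762, rho = 0.740, 0.764 without the 2 farthest rats, 0.652 for deviations from group means, 0.761 in the shorter and 0.687 in the longer class) and inversely with the neuron list (r = -0.756, rho = -0.650, -0.638 without the 2 farthest rats, -0.514 for deviations from group means, -0.667 in the shorter and -0.948 in the longer class). The endothelium list (6 of 7 genes, Flt1 the most abundant) likewise did not overlap in males, at 81.9 to 114 CPM in intact and 127 to 173 CPM in GDX males, with 6 of 6 genes higher. It was 80.6 to 159 CPM in intact and 137 to 200 CPM in OVX females, a difference of 43.8% with overlap, where Kdr was the 1 of 6 genes called in edgeR (adjusted p = 0.0966). This call was lost without OVX female 1 or without OVX female 6, where edgeR called 0 of all genes. All 6 endothelium genes had an unadjusted p under 0.05 and were higher in OVX females, and DESeq2 called 2, Kdr and Esam. The part of vascular cells in the Csf1 result was not tested.

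Microglia carry Csf1r, and their summed markers were higher by 10.2% in GDX than in intact males and by 9.66% in OVX than in intact females. Of 9 genes tested, 8 had a positive log2 fold change in the male and 9 in the female comparison. Their list (9 of 10 genes, most abundant Sall1) averaged 228 CPM ± 8.88 (SD, n = 5) for intact and 251 CPM ± 18.2 (SD, n = 5) for GDX males, with overlapping ranges and 0 of 9 genes called by edgeR (1 at an unadjusted p under 0.05, 1 by DESeq2). Intact females averaged 218 CPM ± 10.1 (SD, n = 6) and OVX females 239 CPM ± 9.02 (SD, n = 6), also overlapping, with 0 of 9 genes called by edgeR (3 at an unadjusted p under 0.05, 1 by DESeq2). Sall1 alone made up much of these sums and of their differences. It averaged 95.1 CPM in intact and 104 CPM in GDX males, and 88.0 CPM in intact and 100 CPM in OVX females.

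The blood cell types for which Kit and Flt3 are best known were near the limit of detection. Of the mast cell list (8 of 8 genes in the table), Cpa3, Tpsb2, Cma1 and Fcer1a had 1 read each in all 22 libraries together and Tpsab1 had 5. The summed level, 2.75 to 6.71 CPM per rat, was almost wholly Gata2 with a mean of 4.52 CPM, and Gata2 was the 1 gene above the filter. Of the dendritic cell list (6 of 6 genes), Xcr1 had 3 reads in all and Siglech 8, and the sum of 6.49 to 9.61 CPM was almost wholly Zbtb46 with a mean of 7.58 CPM. The sums of both lists overlapped between intact and gonadectomized rats of each sex, and in both comparisons 0 of 1 gene of each list was called by edgeR or DESeq2, with 0 at an unadjusted p under 0.05. The blood list (5 of 7 genes, Ptprc the most abundant) was 14.2 to 19.3 CPM in intact and 18.6 to 37.9 CPM in GDX males, with 1 of 2 genes tested higher, Hbb, and 12.4 to 18.5 CPM in intact and 16.2 to 24.0 CPM in OVX females, with 0 of 4 genes called by edgeR (3 at an unadjusted p under 0.05, 1 by DESeq2).

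The astrocyte list also separated the males, at 5123 to 5705 CPM in intact and 6250.2 to 7135 CPM in GDX males, a difference of 21.1%, with 2 of 6 genes higher, Gfap and Aqp4. In the remaining lists the GDX comparison called 1 of 6 oligodendrocyte genes higher, Mbp, 1 of 6 motor neuron genes lower, Slc18a3, and 1 of 5 oligodendrocyte precursor genes lower, Pcdh15. These counts are near the 13.4% of all genes called in that comparison, and nothing is read from them. The precursor list (5 of 5 genes, Ptprz1 the most abundant) summed to 339 to 398 CPM over all rats. The motor neuron list differed by -22.2% in OVX against intact females, with overlap, and had a median log2 fold change of -0.38, all 6 genes being negative. The OVX comparison called 0 genes of the astrocyte, oligodendrocyte, motor neuron and precursor lists in edgeR, with 3, 1, 5 and 1 genes at an unadjusted p under 0.05 and 1, 0, 1 and 1 called by DESeq2.

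**Figure D4:**
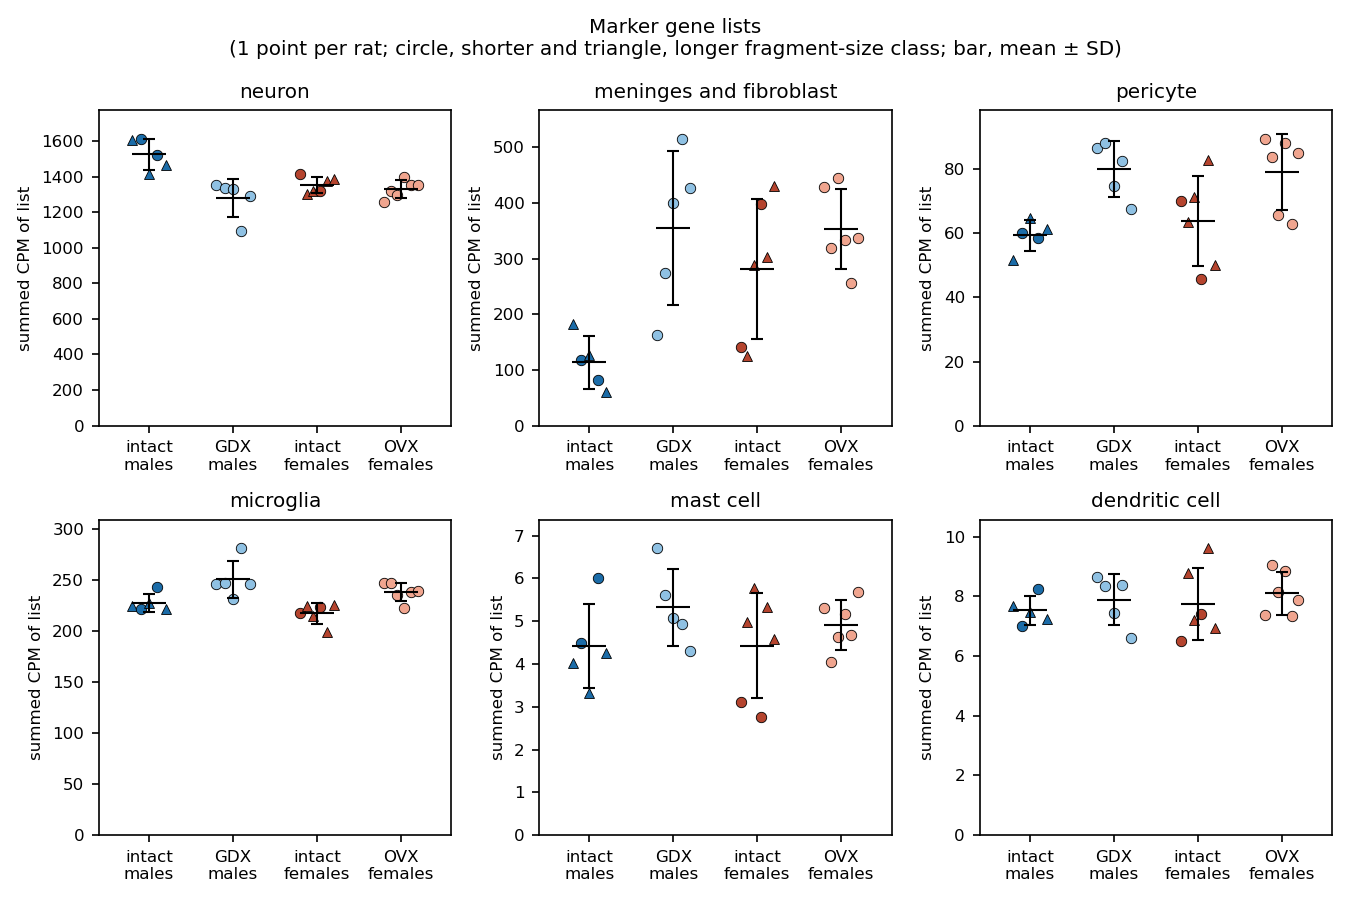
Summed CPM of 6 marker lists (y axis, from 0) in each rat by group, with circles for the shorter and triangles for the longer fragment-size class and bars for the mean ± SD. The neuron list separates intact males (1416.5 to 1611 CPM) from GDX males (1096 to 1352 CPM), the pericyte list separates them in the other direction, and the mast and dendritic cell lists stay below 10 CPM.

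Relatives of Flt3 and Kit were measured as a list of 7 genes, the class III receptors Csf1r, Pdgfra and Pdgfrb and the ligands Pdgfa, Pdgfb, Pdgfc and Pdgfd. In GDX against intact males 2 of 7 were higher at an adjusted p under 0.1 and 0 lower, against the 13.4% of all genes given above. Pdgfra, a receptor of oligodendrocyte precursors and fibroblasts, was at 65.1 to 78.1 CPM in intact and 79.7 to 100.4 CPM in GDX males without overlap (log2 fold change 0.23, SE 0.07, adjusted p = 0.0586 in edgeR). Pdgfrb, the receptor of pericytes, was at 18.5 to 25.6 CPM in intact and 24.5 to 30.2 CPM in GDX males (log2 fold change 0.27, SE 0.09, adjusted p = 0.0789 in edgeR). Over 18 alternatives the adjusted p ranged from 0.0236 to 0.227 for Pdgfra and from 0.0510 to 0.655 for Pdgfrb. The calls did not hold with the fragment-size class as a term, where the log2 fold changes were 0.25 for Pdgfra (adjusted p = 0.187 in edgeR) and 0.09 for Pdgfrb (adjusted p = 0.655 in edgeR), and Pdgfra at 0.16 missed the threshold without GDX male 5 (adjusted p = 0.128 in edgeR).

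Csf1r is the receptor of Csf1 and Il34. Male means were 81.8 CPM ± 4.68 (SD, n = 5) when intact and 87.8 CPM ± 10.2 (SD, n = 5) after GDX, and female means 81.7 CPM ± 4.04 (SD, n = 6) when intact and 89.4 CPM ± 5.79 (SD, n = 6) after OVX. In log2 units Csf1r differed after gonadectomy by 0.10 (SE 0.07, adjusted p = 0.446 in edgeR) in males and 0.13 (SE 0.05, unadjusted p = 0.0153 and adjusted p = 0.355 in edgeR) in females. With 1 rat left out the male value ranged from 0.04 to 0.16. The female value was positive in 20 of 20 alternatives.

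In OVX against intact females 0 of the 7 genes were called in edgeR, 2 (Csf1r and Pdgfb) had an unadjusted p under 0.05, and DESeq2 called 1, Pdgfb. This ligand of Pdgfrb, which endothelial cells release, was at 3.95 to 6.21 CPM in intact and 6.05 to 7.57 CPM in OVX females (log2 fold change 0.52, SE 0.12, adjusted p = 0.160 in edgeR and 0.0269 in DESeq2). In males its log2 fold change was 0.31 (SE 0.18, adjusted p = 0.327 in edgeR). The other ligands had log2 fold changes of -0.01 (Pdgfa), 0.15 (Pdgfc) and 0.08 (Pdgfd) in males and of 0.02, -0.16 and -0.16 in females. With 1 rat left out the male values ranged from 0.17 to 0.41 for Pdgfb, from 0.09 to 0.26 for Pdgfc and from 0.04 to 0.21 for Pdgfd. In females Pdgfc ranged from -0.23 to -0.08 and Pdgfd from -0.21 to -0.11, and Pdgfc reached -0.42 in another alternative.

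The list of signal transducers held 22 genes, all of which were tested. In GDX against intact males 2 of 22 were higher and 0 lower, a share below the 13.4% of all genes, with a median log2 fold change of 0.02 against 0.00 over all genes. Jak2, a kinase upstream of STAT proteins, was at 28.0 to 31.4 CPM in intact and 32.3 to 38.6 CPM in GDX males without overlap (log2 fold change 0.24, SE 0.06, adjusted p = 0.0273 in edgeR). Pik3cg, a catalytic subunit of PI3 kinase, was at 9.05 to 11.1 CPM and 9.72 to 14.3 CPM (log2 fold change 0.31, SE 0.11, adjusted p = 0.0878 in edgeR). Between OVX and intact females 0 of 22 genes were called in edgeR or DESeq2. An unadjusted p under 0.05 in edgeR was found for 6 of them, beside 1516 of all 14910 genes. The log2 fold changes were 0.12 (SE 0.05) for Jak2 and 0.31 (SE 0.13) for Pik3cg. With the class as a term the male calls were lost, at adjusted p = 0.140 for Jak2 and 0.285 for Pik3cg in edgeR, while the log2 fold changes were 0.24 and 0.30. Over 18 alternatives the adjusted p ranged from 0.00897 to 0.180 for Jak2 and from 0.0247 to 0.328 for Pik3cg.

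Of 12 negative regulators 10 were tested, Socs1 and Sla2 being below the filter on low counts. Cbl, the ubiquitin ligase that marks activated class III receptors for degradation, was the 1 of 10 genes called in GDX against intact males, beside 13.4% of all genes. It stood at 50.8, 50.1, 45.3, 46.9 and 47.7 CPM in intact males 1, 2, 3, 5 and 6, and at 42.9, 43.8, 40.3, 38.4 and 43.5 CPM in GDX males 1, 2, 4, 5 and 6. Every GDX male was below every intact male. The share of all genes without overlap was not counted, and nothing is read from the count of 1 of 10. The log2 fold change of Cbl was -0.21 (SE 0.05, adjusted p = 0.0263 in edgeR). It was -0.22 with the fragment-size class as a term (adjusted p = 0.122 in edgeR, and 0.0119 to 0.153 over 18 alternatives). In OVX against intact females Cbl differed by 0.02 (SE 0.06), and 0 of 10 genes were called in edgeR or DESeq2, with 2 at an unadjusted p under 0.05.

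Cbl was also the 1 of 10 negative regulators called between intact males and intact females, beside 4.01% of all genes, and was higher in males (log2 difference 0.20, SE 0.05, adjusted p = 0.0424 in edgeR). Females ranged from 39.9 to 45.7 CPM, and 4 of 5 intact males lay above them. This comparison shares its intact males with the GDX comparison. The call was lost without intact male 1 (adjusted p = 0.116 in edgeR), without intact male 2 (adjusted p = 0.104 in edgeR), with the rat number as a block (0.103) and within the shorter class (0.504, the highest of 19 alternatives). Of the relatives 0 of 7 and of the transducers 0 of 22 were called between the sexes by edgeR or DESeq2, with 2 and 5 genes at an unadjusted p under 0.05 in edgeR.

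Whether the response to gonadectomy differed between the sexes was tested with the interaction, in which 18 of 15562 genes, or 0.116%, passed. Of the relatives 0 of 7, of the transducers 0 of 22 and of the negative regulators 0 of 10 passed in edgeR or DESeq2, and 0, 3 and 1 had an unadjusted p under 0.05 in edgeR. Among all 15562 genes 1810 had an unadjusted p under 0.05. The male response minus the female response was -0.23 (SE 0.08, adjusted p = 0.232 in edgeR) for Cbl and 0.12 (SE 0.08, adjusted p = 0.564 in edgeR) for Jak2. The calls made in males for these genes are thus not shown to differ from the response in females.

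**Figure D5:**
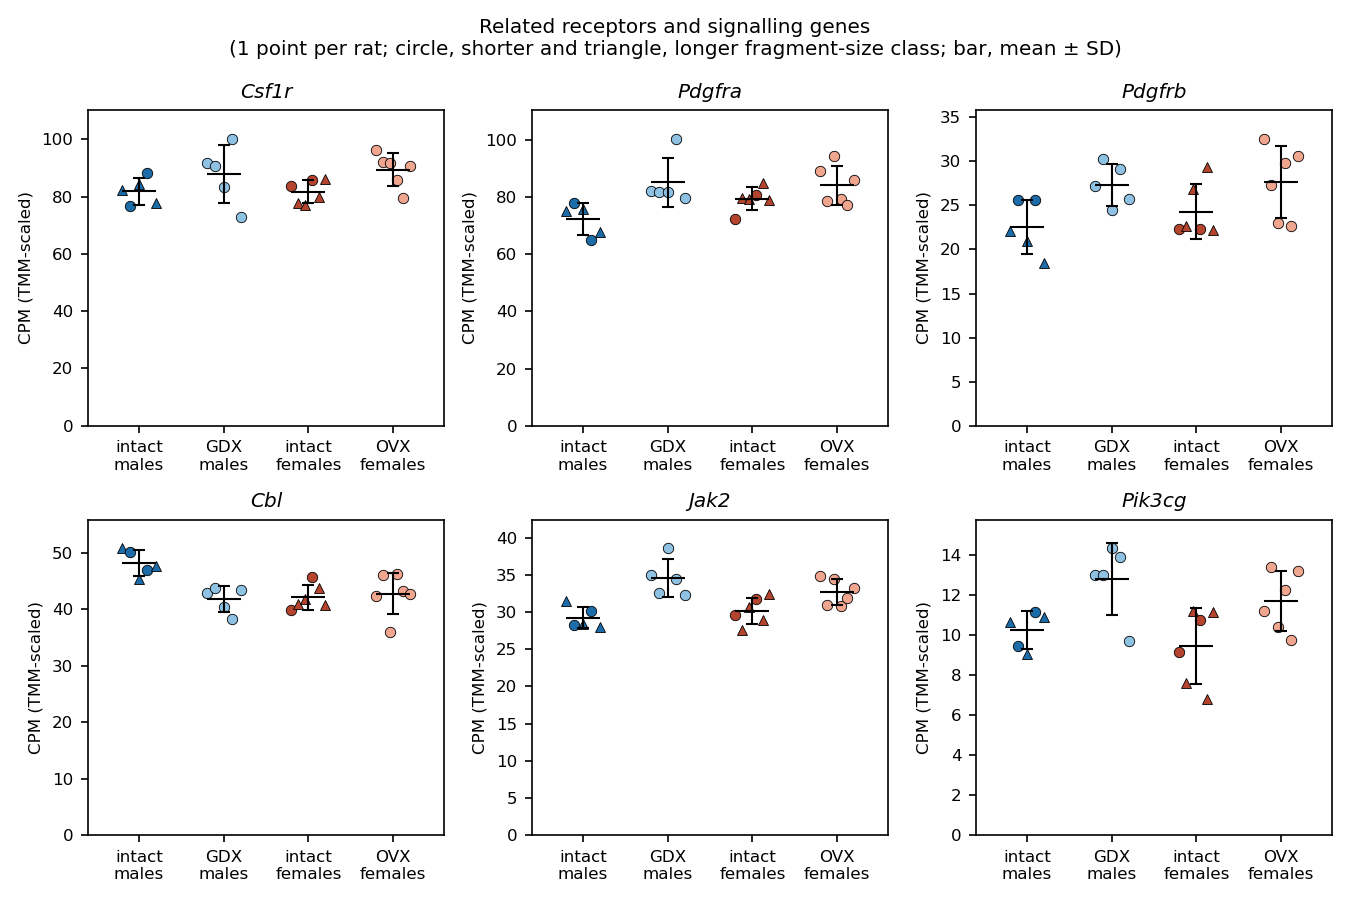
CPM (y axis, from 0) of 3 related receptors and 3 signalling genes in each rat by group, with circles for the shorter and triangles for the longer fragment-size class and bars for the mean ± SD. Cbl and Jak2 do not overlap between intact and GDX males (45.3 to 50.8 against 38.4 to 43.8 CPM, and 28.0 to 31.4 against 32.3 to 38.6 CPM), whereas Csf1r overlaps in all groups.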

How the data were processed

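Ventral cervical spinal cord RNA of 22 rats was analysed from the counts that the authors deposited, whole-number read counts per gene that had not been normalized. The methods name Hisat2 mapping to Rnor_6.0 and featureCounts, and the submitters' processing notes TopHat2 2.0.13 and Subread. Strand and multi-mapping settings were not given in the sources used here, so reads of overlapping or near-identical genes may be shared. The labels name a TruSeq protocol and the methods another kit. All columns were matched to a rat.

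Tests were made in R 4.3.3 with edgeR 4.0.16 (filterByExpr, TMM, glmQLFit, glmQLFTest) on the rats of the groups compared, and on all 22 for the interaction, with Benjamini-Hochberg adjustment over all genes tested and calls at an adjusted p under 0.1. SE is the size of the log2 fold change divided by the square root of F. Each p-value sets a difference between groups against the spread between rats. DESeq2 1.42.0 was run beside edgeR, and the other alternatives were RLE factors, keeping genes with low counts, a term for fragment-size class or RNA integrity, only libraries of the shorter class, all rats in 1 fit, a block for rat number, and leaving out 1 rat at a time. The steps were tested on simulated data.

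The members and lists were chosen with earlier results of these data known. Genes named are the 6 members, the class III relatives, transducers and negative regulators with an adjusted p under 0.1 (at most 6 of each comparison), the 3 genes most like each member, and the most abundant gene of each marker list; other called genes are named beside their counts, after their values were seen. The names of the genes called between OVX and intact females are not all reported here. Of 125 listed genes 120 had 1 row in the table. Itgam, Col1a2, Pecam1 and Hba-a1 had 0 rows and Hba-a2 had 2, and these were not used here. Promoter windows came from RefSeq GRCr8, another build than that of the counts.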

Additional observations from a re-analysis of the deposited data

Results flagged for a closer look

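Of 100 groups of rats searched for a single rat far from the others (the 6 genes, their relatives, the called genes and the marker lists), 5 held one, and chance alone gives about 5% of groups. None of the 6 genes was among them. Pdgfra was at 100.4 CPM in GDX male 5, while the other GDX males had 79.7 to 82.3 CPM. The neuron list summed to 1096 CPM in the same rat, against 1291 to 1352 CPM in the others. Pdgfc was at 3.01 CPM in GDX male 2 against 4.46 to 5.00 CPM in the others, and Pdgfd at 17.0 CPM in intact male 6 against 11.1 to 12.4 CPM. The blood list summed to 16.2 CPM in OVX female 5, while the other OVX females had 21.6 to 24.0 CPM.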

How the results depend on the processing

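The log2 fold change of Flt3 in GDX against intact males lay between -0.48 and -0.44 in 18 alternatives, that of Csf1 between 0.19 and 0.25, and that of Kit between 0.23 and 0.53, all keeping their sign. None of the 6 genes was called in OVX against intact females in any of 20 alternatives. Counts of genes called depended more on the setting. For OVX against intact females (5 genes) they were 174 with DESeq2, 11 without a filter, 3 with the fragment-size class as a term, 11 with RNA integrity as a term, 9 with all rats in 1 fit, and 0 to 113 with 1 rat left out, the highest without intact female 1 (38 without OVX female 4, 0 without OVX female 1 or 6). For GDX against intact males (1995 genes) they were 796 with the class as a term, 440 within the shorter class, 1262 with RNA integrity as a term, and 1202 (without GDX male 5) to 2446 with 1 rat left out. For intact males against intact females (599 genes) they were 34 within the shorter class, which holds 4 rats, and 352 (without intact male 1) to 777 with 1 rat left out, with 385 without intact male 5. For the interaction (18 genes) they were 243 with DESeq2, 33 without a filter, 6 with the class as a term, 5 within the shorter class, 5 with RNA integrity as a term, and 1 to 275 with 1 rat left out, the lowest without GDX male 5 and the highest without GDX male 1. The cause was not tested.

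The rat number as a replicate block gave 0, 1280, 252 and 0 genes called in these comparisons. Rats with the same number did not deviate together (correlations of -0.11 to 0.03), so the numbers were not treated as pairs. A pairing that leaves no such trace in these values is not excluded.

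With 1 rat left out, the calls of Cbl and Jak2 in GDX against intact males held each time. That of Pdgfra was lost without intact male 5 or 6 or GDX male 5, that of Pdgfrb without intact male 1, 3 or 6 or GDX male 2 or 5, and that of Pik3cg without intact male 1, 2, 3 or 6 or GDX male 1, 2, 4 or 5.

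The sign of Flt3lg in GDX against intact males was not settled, with 6 positive and 12 negative values in 18 alternatives from -0.35 to 0.32 (-0.22 to 0.14 with 1 rat left out). Other signs turned as well. The interaction was negative in 3 of 29 alternatives for Flt3lg and in 3 of 29 for Kitlg, and Kitlg in intact males against intact females was -0.0129 without intact male 6. The log2 fold change of Flt3 in OVX females was 0.08 with the class as a term and 0.08 within the shorter class (0.0833 and 0.0790), and that of Pdgfd was 0.0125 and 0.0082. Pdgfa ranged from -0.0114 to 0.0395 in OVX females with 1 rat left out. In GDX males Pdgfa was 0.0029 with the class as a term, 0.0041 within the shorter class, 0.0387 with the replicate block and -0.0326 to 0.0277 with 1 rat left out, and Pdgfd was -0.0013 with RNA integrity as a term. The cause was not tested. Of the 18 genes named as most like a member, 18 remained with a prior count of 0.5, 10 with Spearman rho and 6 with deviations from group means. Depth limits Flt3lg, Il34 and Kit most, whose counts were 6 to 23, 19 to 78 and 41 to 153 per library.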
